A study of Homo sapiens with 6 samples.

Results

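Condensin subunits and the topoisomerase TOP2A are described here as 8 genes (SMC2, SMC4, NCAPD2, NCAPD3, NCAPG, NCAPG2, NCAPH and TOP2A), taken by symbol from a deposited comparison that lists 6831 genes. The samples were MOLM-13 cells, an established human acute myeloid leukaemia line labelled wild type, cultured for 24 h with 50 nM DEG-35 (3 libraries) or with the solvent DMSO (3 libraries). DEG-35 is described by the series as degrading both the transcription factor IKZF2 and the kinase CK1α, and the question was which genes it regulates. The values are the authors' own log2 fold change, p-value and adjusted p for each gene with an adjusted p below 0.05. They are read as DEG-35 over DMSO, which the header does not state, and every direction would turn round under the other order. Levels per library were not analysed here, so neither the overlap of the groups nor the myeloid identity of the cells could be checked on them, and the depth of each library is unknown. No label states that libraries were grown as separate cultures, and the p-values then measure only the spread between these libraries, which may be technical.

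Condensins are ring-shaped ATPase complexes that fold chromatin into loops and turn interphase chromatin into compact mitotic chromosomes. SMC2 and SMC4 form the ATPase pair of both complexes. Condensin I adds the kleisin NCAPH, which closes the ring, and the HEAT-repeat proteins NCAPD2 and NCAPG, whereas condensin II has NCAPH2, NCAPD3 and NCAPG2 in the corresponding places. Condensin II is nuclear throughout interphase, and condensin I reaches chromosomes after the nuclear envelope breaks down. TOP2A is the topoisomerase II of dividing cells, which passes one DNA duplex through another to untangle sister chromatids and is the target of etoposide and anthracyclines, drugs used in leukaemia.

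All 8 genes were lower with DEG-35 in the authors' deposited table, by very different amounts. The kleisin gene NCAPH (log2 fold change -2.56), TOP2A (-2.51), NCAPG (-2.42) and NCAPG2 (-2.25) fell most in the authors' deposited table, to between 16.9% and 21.1% of their DMSO level. SMC2 (-1.81), NCAPD3 (-1.45) and NCAPD2 (-1.22) lay between these and the least changed member in the authors' deposited table, with 28.5% to 42.8% of the DMSO level left. SMC4 was that member, with a log2 fold change of -0.50 in the authors' deposited table and 70.9% of its DMSO level left. The adjusted p-values imply that 15064 genes were tested, of which 45.3% passed, 24.0% as lower and 21.4% as higher. Only genes that passed are listed, and the members were taken from these. Of the 6831 listed genes 3613 were lower, so a lower value was common among them. The members' median log2 fold change was -2.03, against -0.19 over all listed genes and -0.45 over the 3613 listed genes that were lower. In these bulk samples fewer dividing cells and less of each mRNA per cell cannot be told apart.

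**Figure D1:**
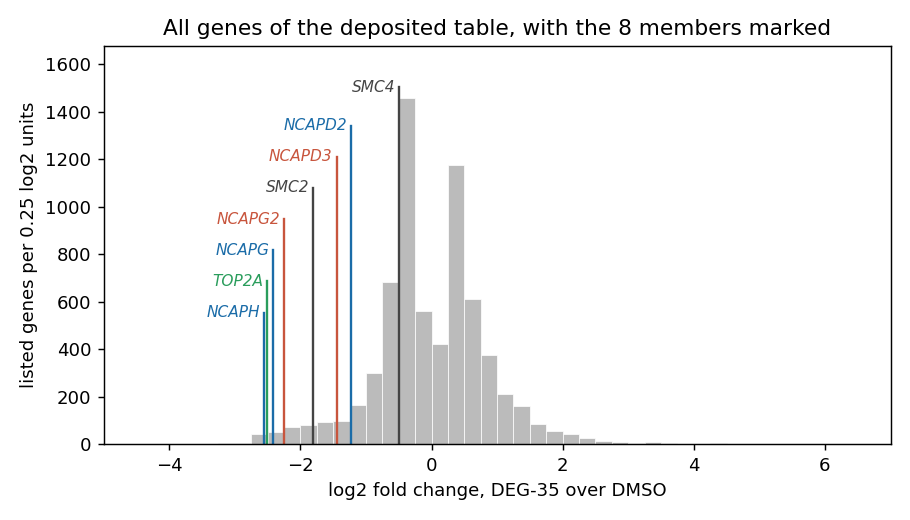
Number of listed genes (vertical axis, per 0.25 log2 units) by log2 fold change of DEG-35 over DMSO (horizontal axis) in the authors' deposited table, with a vertical line at each member's value; line heights only separate the names. Line colours show SMC subunits (dark grey), condensin I (blue), condensin II (red) and TOP2A (green). SMC4 at -0.50 lies in the bulk of the lower genes, and NCAPH, TOP2A, NCAPG and NCAPG2 lie in the tail below -2.

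The position of each member in the table shows how far out these changes lie. Of the 3613 lower genes, 614 (17.0%) had a log2 fold change of -1 or below, and 7 of the 8 members were among them. A value of -2 or below was reached by 179 genes, 4.95% of the lower ones, 4 of them members. Ordered from the lowest log2 fold change, NCAPH stood at rank 36 of 6831, TOP2A at 53, NCAPG at 72 and NCAPG2 at 109. SMC2 followed at 236, NCAPD3 at 373, NCAPD2 at 464 and SMC4 at 1603. The standard errors implied by fold change and p-value ran from 0.0576 to 0.0754 for the 7 condensin members. These lay below the median of 0.0891 over the table. TOP2A has no such value because its p is listed as 0.

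The stretches before the starts of these genes are shown with 3 kinds of short motif known from promoters of cell cycle genes. They are the CHR (letters TTTGAA), a site of the DREAM and MuvB complexes that control late cell cycle genes, the CCAAT box bound by NF-Y (letters CCAAT), and E2F sites (letters TTCCCGC or TTGGCGC). RefSeq promoter windows of GRCh38.p14, from 250 bases before to 50 after an annotated start, were found for all 8 members, 11 windows in all, because SMC2, SMC4 and NCAPD3 have more than 1 start. Both strands were searched, and capitals mark the matches. A match on the strand opposite to the gene appears as TTCAAA for the CHR, ATTGG for the CCAAT box and GCGGGAA for the first E2F form. Each sequence runs 5′ to 3′ on the gene's strand and ends at the base before the start, except those of SMC2 and NCAPD3, which run 10 bases further to include a CHR that spans the start. They are shown for the members whose upstream stretch holds a match.
TOP2A, chr17:40417897-40418146, minus strand: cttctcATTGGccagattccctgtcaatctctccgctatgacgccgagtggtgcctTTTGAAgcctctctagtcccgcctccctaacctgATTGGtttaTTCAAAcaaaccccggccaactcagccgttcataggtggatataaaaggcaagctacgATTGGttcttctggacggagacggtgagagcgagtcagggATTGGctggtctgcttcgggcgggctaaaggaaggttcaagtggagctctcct
NCAPG, chr4:17810859-17810978, plus strand: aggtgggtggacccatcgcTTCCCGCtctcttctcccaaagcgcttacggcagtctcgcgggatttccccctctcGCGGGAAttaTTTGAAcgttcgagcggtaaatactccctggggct
NCAPH, chr2:96335646-96335765, plus strand: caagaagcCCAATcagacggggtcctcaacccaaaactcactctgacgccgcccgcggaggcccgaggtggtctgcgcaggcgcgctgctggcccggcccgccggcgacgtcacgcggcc
NCAPD2, chr12:6493892-6494101, plus strand: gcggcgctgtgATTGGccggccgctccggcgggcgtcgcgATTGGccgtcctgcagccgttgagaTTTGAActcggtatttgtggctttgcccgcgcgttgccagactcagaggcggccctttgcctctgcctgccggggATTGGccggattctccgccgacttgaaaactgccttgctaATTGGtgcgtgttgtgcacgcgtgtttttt
NCAPD3, chr11:134223958-134224097, minus strand: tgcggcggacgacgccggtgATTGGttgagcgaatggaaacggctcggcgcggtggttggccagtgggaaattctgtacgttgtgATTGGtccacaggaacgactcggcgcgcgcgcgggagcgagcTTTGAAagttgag
SMC2, chr9:104094249-104094318, plus strand: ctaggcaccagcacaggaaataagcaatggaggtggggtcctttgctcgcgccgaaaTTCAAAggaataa
SMC4, chr3:160399530-160399649, plus strand: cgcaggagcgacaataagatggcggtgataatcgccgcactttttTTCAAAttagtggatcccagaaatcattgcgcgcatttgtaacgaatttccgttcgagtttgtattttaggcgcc

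TOP2A and NCAPD2 had the densest sets. The TOP2A window held 4 CCAAT boxes, all on the opposite strand and starting 244, 160, 93 and 53 bases before the start, with CHR letters 194 and 151 bases before it. NCAPD2 also had 4 CCAAT boxes on the opposite strand, from 199 to 30 bases before its start, and 1 CHR at 145 bases. In NCAPG, 2 E2F matches began 101 and 45 bases before the start, the nearer one followed by a CHR at 35 bases. The NCAPD3 start that lies further downstream had a CHR across the start, CCAAT boxes 110 and 45 bases before it and an E2F match at 249 bases, outside the printed stretch. NCAPH, the member that fell most, held a single CCAAT box at 112 bases and no TTTGAA in its window, and the CHR letters of NCAPG2 lay 36 bases after its start. SMC4, the least changed, had a CHR 75 bases before its first start, and the second starts of SMC2 and SMC4 had no match.

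Counted over windows, 7 of 11 held a CHR, 4 of 11 a CCAAT box and 2 of 11 an E2F match. Among all 35116 RefSeq windows of the same length, 15.2% held a CHR, 34.6% a CCAAT box, 6.55% the first E2F form and 3.04% the second. The E2F matches of the members were of the first form. These are matches of letters, not measured binding, and no relation between the matches and the size of the changes was tested.

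**Figure D2:**
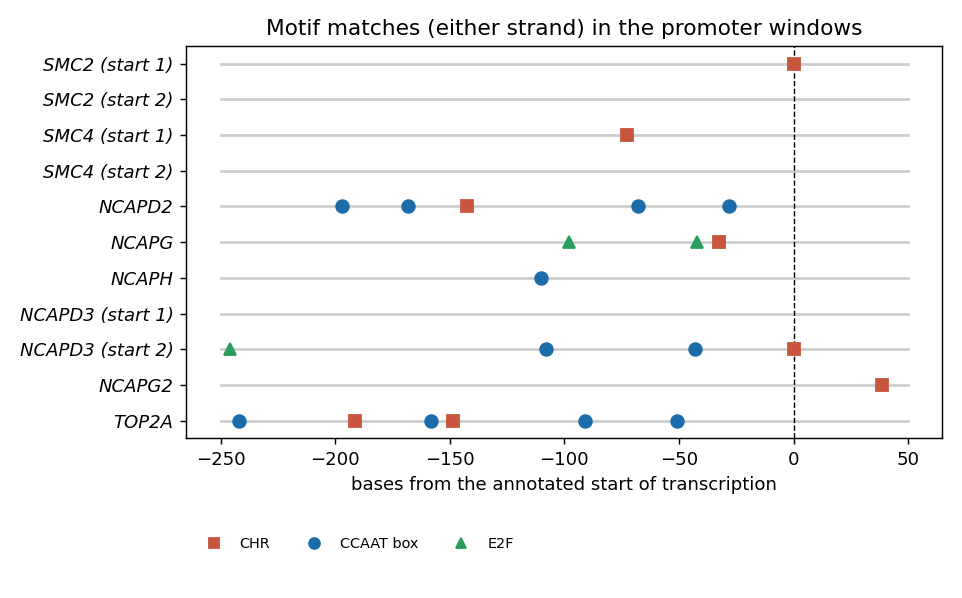
Positions of motif matches on either strand (horizontal axis, bases from the annotated start of transcription, dashed line) in the 11 RefSeq promoter windows of the 8 members (grey lines). Squares are CHR, circles CCAAT boxes and triangles E2F matches, and TOP2A and NCAPD2 carry 4 CCAAT boxes each.

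The SMC ATPases, which work as a heterodimer, did not change to the same extent. SMC2 fell 3.50-fold in the authors' deposited table, at -1.81 ± 0.0742 on the log2 scale (implied SE, 3 libraries a group, adjusted p = 3.36e-129). In the authors' deposited table SMC4 fell 1.41-fold (-0.50 ± 0.0661, adjusted p = 6.19e-13). The gap between the partners was 1.31 on the log2 scale, with a 95% interval of 1.12 to 1.51 that takes the errors of both genes as independent. SMC4 overlaps other genes: in GENCODE 29 its last part shares 2518 bases with TRIM59 on the other strand, and its first 607 bases overlap IFT80, while the entry AC079594.2 spans the whole gene on the other strand. In the authors' deposited table TRIM59 stood at -0.81 ± 0.0842 and IFT80, a ciliary transport gene, at 0.39 ± 0.0867. The overlap lengths are of whole gene spans, introns included, so the counted bases that are shared may be fewer. The processing notes name hg19 but not the gene annotation used for counting, which may differ from GENCODE 29. Strand-specific counting is not stated in the sources used here, so reads in shared counted bases cannot be told apart. The part of such reads in the value of SMC4 was not tested. The microRNA genes MIR15B and MIR16-2 lie within SMC4 on its strand and were not among the listed genes. They either failed the threshold or were not tested in these mRNA libraries, so their levels are unknown.

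The HEAT-repeat subunits fell by amounts that went with the type of subunit more than with the complex. NCAPG of condensin I and NCAPG2 of condensin II, which take the same place in their complexes, fell 5.35-fold and 4.75-fold in the authors' deposited table. Their log2 fold changes there were -2.42 ± 0.0727 (adjusted p = 1e-239) and -2.25 ± 0.0698 (adjusted p = 1.3e-224) in the authors' deposited table. The difference of -0.17 had a 95% interval from -0.37 to 0.03, which includes 0. NCAPD2 of condensin I and NCAPD3 of condensin II fell by less in the authors' deposited table, 2.34-fold at -1.22 ± 0.0576 (adjusted p = 2.58e-98) and 2.73-fold at -1.45 ± 0.0599 (adjusted p = 3.66e-127). NCAPD2 was the less lowered of these, by 0.22 with an interval of 0.06 to 0.39. Both subunits of the G type fell more than both of the D type.

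Parts of these genes lie over others too, again measured over whole gene spans with introns included. In GENCODE 29, 3664 bases of NCAPG overlap LCORL, 486 bases of NCAPD2 overlap MRPL51, and NCAPD3 overlaps JAM3 over 1883 and VPS26B over 810 bases, all on the other strand. The authors' deposited table gave LCORL at -1.0 ± 0.0910, MRPL51 at -0.42 ± 0.0689, JAM3 at -1.16 ± 0.203 and VPS26B at 0.16 ± 0.0698. No other protein-coding gene overlaps SMC2, NCAPG2, NCAPH or TOP2A in that annotation.

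The kleisins showed the widest gap between the complexes. NCAPH of condensin I was 5.91-fold lower in the authors' deposited table (log2 fold change -2.56 ± 0.0754, adjusted p = 2.83e-250). NCAPH2, the condensin II kleisin, is not among the 8 genes and was looked up for comparison. In the authors' deposited table it fell to 49.9% of its DMSO level (log2 fold change -1.0 ± 0.105, adjusted p = 3.44e-20), and its SE was larger than that of any member. NCAPH fell by 1.56 more than NCAPH2 on the log2 scale (95% interval of the difference, -1.81 to -1.31). Over the 3 subunits proper to each complex, the mean log2 fold change was -2.07 for condensin I and -1.57 for condensin II. The difference between these means was -0.50, and it was 0.026 without the kleisins NCAPH and NCAPH2. The interval of NCAPH2 overlapped that of NCAPD2 and lay apart from that of SMC4.

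**Figure D3:**
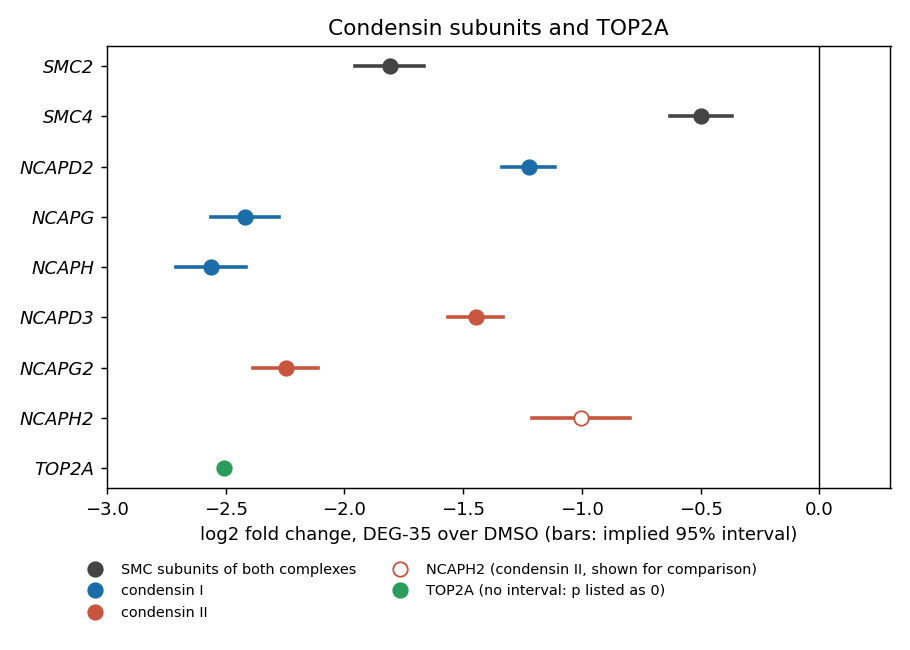
Log2 fold change of DEG-35 over DMSO (horizontal axis) for each gene (vertical axis), with the implied 95% interval as a bar; TOP2A has no bar because its p is listed as 0, and NCAPH2 (open circle) was added for comparison. All 9 genes lie below 0, from -2.56 for NCAPH to -0.50 for SMC4.

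TOP2A stood beside the most lowered condensin genes. It was 5.69-fold lower in the authors' deposited table (log2 fold change -2.51), which gives it a p and an adjusted p of 0, as it does for 3 genes in all. If 0 stands for a p below 2.23e-308, the smallest that a double-precision number holds in full, the implied SE of TOP2A is at most 0.0668. Its neighbours in the order of change were NCAPH, lower by 0.05, and NCAPG, higher by 0.09 on the log2 scale. With the SE of TOP2A set at that limit, the 95% intervals of NCAPH, TOP2A and NCAPG overlapped, and so did those of NCAPG and NCAPG2, while those of NCAPH and NCAPG2 did not. The steps from NCAPG2 to SMC2 (0.44), SMC2 to NCAPD3 (0.36) and NCAPD2 to SMC4 (0.73) were each wider than the intervals of both genes. The intervals of NCAPD3 and NCAPD2 overlapped, although the interval of their difference, 0.06 to 0.39, did not include 0.

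The other topoisomerase genes were either higher or lowered by less than TOP2A. TOP2B, the topoisomerase II that non-dividing cells also use, was higher in the authors' deposited table, at 0.27 ± 0.0669 (adjusted p = 1.74e-04). TOP2A and TOP2B thus differed by -2.78 on the log2 scale, with an interval of -2.97 to -2.60. Of 9 topoisomerase and partner genes 7 were listed, 5 as lower and 2 as higher, beside 3613 lower of all 6831 listed genes. Their median was -0.47, and TOP3B and TDP2 were not listed. RMI2 and RMI1, which join topoisomerase IIIα and the BLM helicase in dissolving recombination intermediates, stood at -2.04 ± 0.189 and -0.96 ± 0.0822 in the authors' deposited table. TOP3A (-0.79 ± 0.0759), TOP1 (-0.43 ± 0.0714) and TDP1 (-0.47 ± 0.0792), which repairs trapped topoisomerase I, were lower in the authors' deposited table. The mitochondrial TOP1MT was higher there, at 0.22 ± 0.0766 in the authors' deposited table.

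Cohesin is the related SMC complex that holds sister chromatids together. In the authors' deposited table the ring subunits SMC1A, SMC3 and RAD21 stood at -1.23 ± 0.0610, -1.08 ± 0.0649 and -0.97 ± 0.0668. All 9 listed genes of 14 for cohesin and its regulators were lower, with a median of -0.97. Among all 6831 listed genes 3613 were lower. The S-phase acetyltransferase gene ESCO2 (-2.52 ± 0.0813) and CDCA5, which encodes the cohesin protector sororin (-2.43 ± 0.0756), had the lowest values of the list in the authors' deposited table. STAG2 (-0.25 ± 0.0670) and PDS5A (-0.28 ± 0.0682) moved least among the listed ones in the authors' deposited table. The cohesin loader genes NIPBL and MAU2, the release factor WAPL, ESCO1 and HDAC8 were not listed, so they either failed the threshold or were not tested.

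Of 9 genes of the SMC5/6 complex, which acts in DNA repair, 6 were listed, all 6 lower, with a median of -0.63. Lower values made up 3613 of all 6831 listed genes. SMC5 and SMC6 stood at -0.65 ± 0.0742 and -0.60 ± 0.0785 in the authors' deposited table, a pair of partners with nearly equal values. The recruitment factor genes SLF1 (listed as ANKRD32) and SLF2 (listed as FAM178A) were at -1.25 ± 0.0968 and -0.81 ± 0.0693 in the authors' deposited table. NSMCE1, NSMCE3 and EID3 were not listed.

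Genes whose products load, modify or accompany condensin on mitotic chromosomes were mostly far lower. Of 14 genes 13 were listed, all lower, beside 3613 lower of all 6831 listed genes. Their median on the log2 scale was -2.39. The kinase genes CDK1 (-2.67 ± 0.0740) and PLK1 (-2.61 ± 0.0822), whose products phosphorylate condensin, fell in the authors' deposited table. BIRC5, the survivin subunit of the chromosomal passenger complex, stood at -2.48 ± 0.0752 in the authors' deposited table. MKI67, which keeps mitotic chromosomes apart, was at -2.52 there with a p of 0 in the authors' deposited table, and CCNB1 was at -2.13 ± 0.0719. Of the other chromosomal passenger genes, AURKB (-2.58 ± 0.0969), CDCA8 (-2.36 ± 0.0810) and INCENP (-1.78 ± 0.0891) were lower in the authors' deposited table. So were KIF4A (-2.61 ± 0.0906), a chromokinesin that binds condensin I, SGO1 (listed as SGOL1, -2.39 ± 0.113), which protects centromeric cohesin, and the kinase gene AURKA (-1.53 ± 0.0747) in the authors' deposited table. The smallest changes of the list were those of CSNK2A1, a catalytic subunit of casein kinase 2, at -0.18 ± 0.0617, and BANF1 at -0.36 ± 0.0634 in the authors' deposited table. MCPH1, an inhibitor of condensin II, was not listed. These 4 lists share no gene with the 8 members, and no test compared them with the members.

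**Figure D4:**
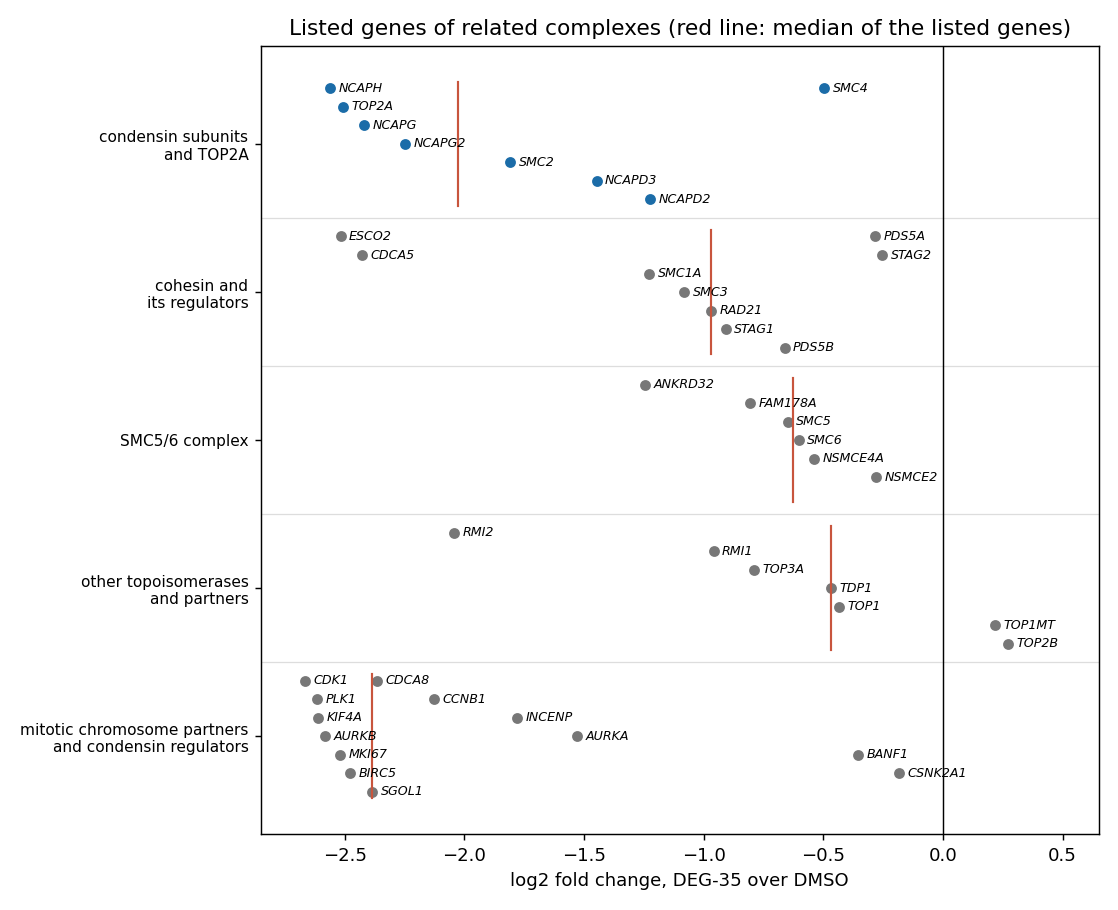
Log2 fold change of DEG-35 over DMSO (horizontal axis) for each listed gene of the 8 members (blue) and of 4 related lists (grey), with the median of each list's listed genes as a red line; vertical offsets only separate the names. TOP2B at 0.27 and TOP1MT at 0.22 lie above 0, and all other points lie below it.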

How the data were processed

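RNA of 3 DMSO and 3 DEG-35 samples was made into 1 mRNA library each, per the labels' protocols, and samples were grouped by title. The submitters' processing notes name hg19, STAR, featureCounts and DESeq2, without versions or options. The authors deposited 1 table with log2 fold changes, p-values and adjusted p-values, per the file headers, holding only genes with an adjusted p-value below 0.05. Since it has no counts, depth per sample is unknown and the adjusted p-values of the authors were taken over unchanged. The number of tests was computed as adjusted p times rank over p (2789 genes with p above 1e-04, within 0.041%). Implied SEs are the absolute log2 fold change over the normal quantile of the two-sided p, assuming a Wald test, and 95% intervals follow from them. Both computations were tested on simulated data made by the same formulas. That checks the arithmetic, not whether the authors' values come from a Wald test. Members and lists were chosen with earlier results of these data known; named are the members, NCAPH2, overlapping genes and, in 4 related lists, chiefly those with the smallest adjusted p, others being added after their values were seen. From the list of mitotic partners 1 gene was left out of all counts and is not reported here. Symbols were matched through RefSeq synonyms (3 genes: SLF1, SLF2 and SGO1). No table of protein sequences was used here. Alternatives were stricter thresholds, shifted fold changes, changed membership and exact symbols. The software was Python 3.11.15 with SciPy 1.17.1, NumPy 2.4.6, pandas 2.3.3 and Matplotlib 3.10.9.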

Additional observations from a re-analysis of the deposited data

How the results depend on the processing

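The count of 8 lower members stayed within 1.5 times under all 7 alternatives (7 to 9 genes). Several of these could hardly alter it. The shifts of 0.3 left the adjusted p-values unchanged and were smaller than any member's change. Changed membership only took out TOP2A or added NCAPH2. The count was 7 with a minimum size of 1 on the log2 scale, which SMC4 does not reach. The members' median log2 fold change of -2.03 became -2.25 with that minimum, -2.33 and -1.73 with all values shifted down or up by 0.3, and -1.81 both for condensin subunits alone and with NCAPH2 added. All these moves follow from the construction of the alternatives. The minimum of 1 reduced the lower genes from 9 to 4 for cohesin and from 6 to 1 for SMC5/6. It also reduced them from 5 to 1 for the other topoisomerases and from 13 to 11 for the mitotic partners. With exact symbols only, the lower genes went from 6 to 4 for SMC5/6 and from 13 to 12 for the mitotic partners. Cohesin and the other topoisomerases kept 9 and 5 under exact symbols. The shifts were not applied to the related lists. There TOP2B (0.27), TOP1MT (0.22), STAG2 (-0.25), PDS5A (-0.28), NSMCE2 (-0.28) and CSNK2A1 (-0.18) changed by less than 0.3 in the authors' deposited table. The direction of these genes would turn under 1 of the shifts. The difference between condensin I and II of -0.50 turned to 0.026 without the kleisins, an alternative chosen after seeing the data. No paired analysis was possible because the table has no per-library values, and for the same reason leaving out replicates, other tools and low-count filters were not run.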
